A study of Mus musculus with 6 samples.

Results

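This account covers 33 autosomal protein-coding genes of the forkhead family, the Fox genes, in maps of open chromatin of mouse epiblast stem cells in embryoid body culture. They are the forkhead genes outside the endoderm and mesoderm programme. The rule took every accessible peak whose nearest autosomal protein-coding gene within 100 kb of the summit carried a Fox symbol from Foxa to Foxs. It left out Foxa1, Foxa2, Foxa3, Foxc1, Foxc2, Foxd3, Foxf1 and Foxh1, which act in endoderm, mesoderm and early gastrulation, and non-coding symbols such as those ending in os. The 33 genes, of 20665 autosomal protein-coding genes, held 832 merged accessible regions of 239675 in all, made up of 738 peaks of one deposited list and 485 of the other.

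The cells were mouse epiblast stem cells (EpiSCs), the cultured counterpart of the post-implantation epiblast, which had been grown on irradiated fibroblast feeders and then kept for 2 days as embryoid bodies in serum. One group lacked Mixl1, a paired-type homeodomain factor of the primitive streak, and had 3 libraries. The other group carried inducible Mixl1 and received 1 µg/mL doxycycline for the 24 h before collection, also with 3 libraries. The assay was ATAC-seq, in which a transposase inserts sequencing adapters into open chromatin, on 50000 cells per replicate with 11 cycles of PCR. The extent of the Mixl1 deletion, the promoter of the transgene and whether replicates came from separate cultures are not stated in the sources used. Mixl1 itself, the doxycycline and the cell line cannot be told apart in this comparison.

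The deposit holds 1 peak list per group rather than 1 per library. One list is named KO and was set against the knockout cells. The other is named FM, which no label explains, and it was set against the induced cells by elimination. No spread between replicates was therefore available, no difference between the groups was tested, and every interval below covers counting error alone.

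Forkhead proteins share a winged-helix DNA-binding domain that reads a short core motif, and several subclasses can bind their sites in closed nucleosomal DNA. The genes described here divide by where they act. Some specify neural territories, placodes, skin, thymus or cilia, some work in mesenchyme, kidney and gonad, and the FoxO, FoxP, FoxK, FoxM, FoxN and FoxJ genes act in many tissues. FoxO proteins are held in the cytoplasm when insulin and growth factor signalling through Akt phosphorylates them. At an open promoter or enhancer the nucleosomes are displaced, so accessibility marks possible regulatory DNA and is not a measure of transcription.

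Promoter sequences were examined first, because the promoters of these genes range from dense CpG islands to windows with few CpG. RefSeq promoter windows (GRCm38.p6, the mm10 assembly) of 300 bases, from 250 bases before to 50 after the annotated start, were matched by gene for 21 of the 33 genes and gave 23 windows, 3 of them alternative starts of Foxp1. The windows below were chosen after their values were seen, as the densest CpG window with the highest promoter fold in the knockout list (Foxk2), the window with the highest promoter fold in the induced list (Foxi3), the one window with an FM peak and no KO peak (Foxn1), and the 3 starts of Foxp1. Each reads 5′ to 3′ on the gene's own strand, and capitals mark CpG dinucleotides.
Foxk2, chr11:121259737-121260036, plus strand: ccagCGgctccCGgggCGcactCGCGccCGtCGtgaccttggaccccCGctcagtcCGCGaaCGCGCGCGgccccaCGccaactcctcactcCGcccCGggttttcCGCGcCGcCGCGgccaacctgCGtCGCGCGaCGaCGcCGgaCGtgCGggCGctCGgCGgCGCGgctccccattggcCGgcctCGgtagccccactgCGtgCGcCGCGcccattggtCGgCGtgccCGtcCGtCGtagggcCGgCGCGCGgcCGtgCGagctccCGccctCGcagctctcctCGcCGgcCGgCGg
Foxi3, chr6:70956356-70956655, plus strand: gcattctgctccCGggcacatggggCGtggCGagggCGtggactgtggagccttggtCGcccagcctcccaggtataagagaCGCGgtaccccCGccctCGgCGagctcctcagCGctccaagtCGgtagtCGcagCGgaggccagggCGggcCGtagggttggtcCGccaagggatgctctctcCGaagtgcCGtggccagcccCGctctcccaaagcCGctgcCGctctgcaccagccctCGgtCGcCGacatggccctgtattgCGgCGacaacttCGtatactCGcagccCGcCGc
Foxn1, chr11:78386559-78386858, minus strand: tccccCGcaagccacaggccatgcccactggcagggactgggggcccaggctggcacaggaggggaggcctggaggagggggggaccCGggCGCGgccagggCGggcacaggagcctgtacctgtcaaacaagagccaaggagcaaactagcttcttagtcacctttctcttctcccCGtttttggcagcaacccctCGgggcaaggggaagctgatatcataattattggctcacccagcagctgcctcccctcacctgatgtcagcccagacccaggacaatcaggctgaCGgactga
Foxp1 first start, chr6:99520944-99521243, minus strand: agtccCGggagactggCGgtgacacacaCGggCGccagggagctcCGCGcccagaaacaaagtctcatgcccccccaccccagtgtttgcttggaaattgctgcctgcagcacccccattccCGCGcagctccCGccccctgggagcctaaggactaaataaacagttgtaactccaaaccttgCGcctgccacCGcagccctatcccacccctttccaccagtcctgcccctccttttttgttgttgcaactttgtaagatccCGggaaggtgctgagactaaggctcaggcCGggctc
Foxp1 middle start, chr6:99266466-99266765, minus strand: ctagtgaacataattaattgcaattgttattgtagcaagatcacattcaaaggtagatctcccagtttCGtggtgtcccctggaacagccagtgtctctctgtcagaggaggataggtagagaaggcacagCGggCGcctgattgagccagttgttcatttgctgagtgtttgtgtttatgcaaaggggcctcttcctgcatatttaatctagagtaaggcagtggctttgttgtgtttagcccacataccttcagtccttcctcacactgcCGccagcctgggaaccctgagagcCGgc
Foxp1 last start, chr6:99028249-99028548, minus strand: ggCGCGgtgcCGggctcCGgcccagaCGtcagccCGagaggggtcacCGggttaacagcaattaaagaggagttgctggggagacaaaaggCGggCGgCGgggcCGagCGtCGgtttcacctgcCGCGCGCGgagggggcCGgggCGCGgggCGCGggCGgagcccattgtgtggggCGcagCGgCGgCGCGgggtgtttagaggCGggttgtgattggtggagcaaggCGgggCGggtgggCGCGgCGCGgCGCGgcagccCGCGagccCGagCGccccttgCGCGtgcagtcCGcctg

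The Foxk2 window held 59 CpG dinucleotides, the most of the 23, and the overlapping peak had a fold enrichment of 3.42 (FM) and 5.89 (KO). Fold enrichment here is the authors' peak-caller value, the fragment pileup at the summit over the local background. The Foxi3 window held 31 CpG dinucleotides and had folds of 4.88 (FM) and 5.31 (KO). Foxi3 is a placode and epidermal appendage factor, and its promoter was among the most strongly opened of the family in both lists. The Foxn1 window, with 8 CpG dinucleotides, was overlapped by an FM peak of fold 1.86 and −log10 q of 5.07 and by no KO peak. Foxn1 is required for thymic epithelium and for hair growth. The 3 Foxp1 starts held 13, 5 and 44 CpG dinucleotides from the first to the last along the gene. At the first, the folds were 3.05 (FM) and 3.08 (KO). At the middle start, with 5 CpG dinucleotides, they were 3.25 (FM, −log10 q of 20.0) and 2.17 (KO, −log10 q of 6.42). At the last, with 44, they were 3.82 (FM) and 4.93 (KO). The middle start was the 1 of the 3 at which the FM value was the larger. Folds of separately called lists are not on a common scale, so values of the lists are given side by side and no change is read from them.

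A ratio of observed to expected CpG of at least 0.6 was reached by 15 of the 23 windows (65.2%), against 48.9% of the 20085 windows of all autosomal protein-coding genes. An FM peak overlapped 20 of the 23 windows (87.0%, against 69.2% of all windows) and a KO peak 19 (82.6%, against 66.5%). Among the 15 CpG-rich windows, 14 had a peak in each list (93.3%), where 96.9% of all such windows did. Among the 8 CpG-poor windows, 6 had an FM peak (75%, against 42.6% of all such windows) and 5 a KO peak (62.5%, against 37.3%). The windows with no peak in either list were those of Foxb2 and Foxd4 and an internal start of Foxn3. Of the motifs searched on both strands, the paired-homeodomain palindrome (an inverted repeat of TAAT) and the forkhead core TGTTTAC were in none of the 23 windows, which allows a share of up to 13.0%; they were in 0.383% and 3.04% of all windows. The homeodomain core TAAT, which also lies in both arms of the palindrome, was in 10 windows (43.5%, against 51.5%), and the GC box GGGCGG was in 17 (73.9%, against 47.0%).

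**Figure D1:**
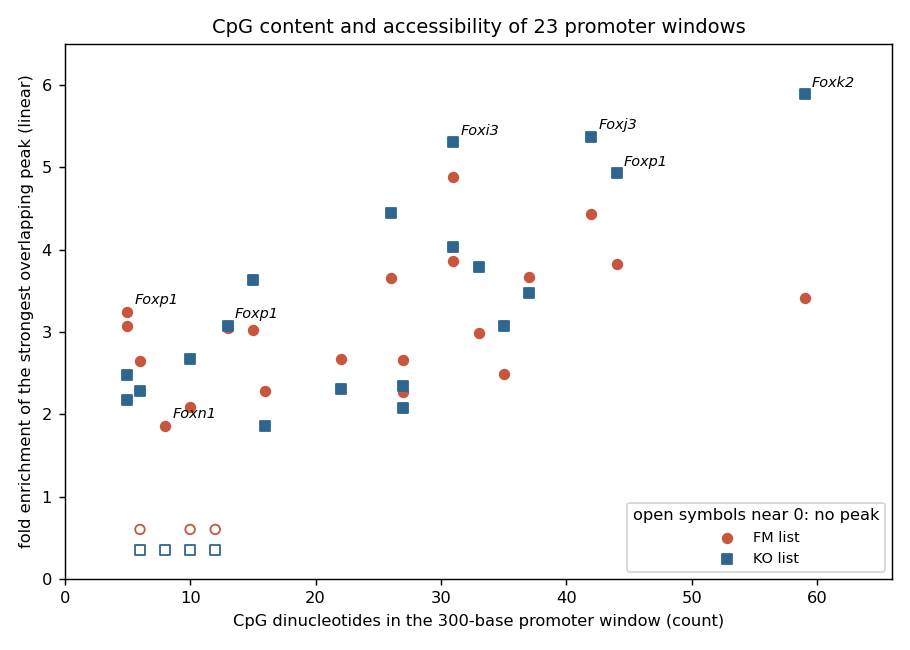
Number of CpG dinucleotides in each of 23 RefSeq promoter windows of 300 bases (x axis) against the linear fold enrichment of the strongest overlapping peak (y axis), with circles for the FM list and squares for the KO list. Open symbols near 0 are windows with no peak; Foxk2, with 59 CpG dinucleotides, has the highest KO fold at 5.89, and Foxi3 the highest FM fold at 4.88.

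The lists differed in length, which bears on every count below. On the assembled chromosomes the FM list held 205844 peaks and the KO list 139164, after summits of one peak were collapsed to a single entry. The fragment pileup at the summit, recovered as a whole number for all 738 FM and 485 KO peaks of the forkhead genes, had a median of 80 fragments (45 to 374) in FM and 89 (46 to 751) in KO. Read totals per library are not stated in the sources used. Peaks within 1 kb of a gene end were present at 6 (FM) and 7 (KO) of 8 epiblast markers, at 6 of 6 primitive streak markers and 5 of 5 definitive endoderm markers in both lists, at 5 of 7 feeder fibroblast markers in both, and at 5 (FM) and 4 (KO) of 6 extraembryonic markers. Of all genes, 74.2% (FM) and 71.2% (KO) had such a peak, so the counts of feeder and extraembryonic markers were near the background and nothing is read from them about those cells.

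Of the 832 regions at the forkhead genes, 357 were shared between the lists (42.9%), 364 were FM-specific and 111 were KO-specific. Over all genes 41.1% of 222608 regions were shared, 43.5% were FM-specific and 15.5% KO-specific, where shared means an overlap of at least 1 bp. Of the list-specific regions at the forkhead genes, 76.6% were FM-specific (exact binomial 95% interval 72.6 to 80.4) against 73.7% of all specific regions, and 74.3% when all genes were weighted by the chromosomes of the forkhead genes. The forkhead share of all 33 genes thus lay close to the background. Leaving out Foxn3 alone gave 80.6% (76.3 to 84.5), with its chromosome still in the background. With the 50000 peaks of lowest p-value taken from each list, the forkhead share was 50.7% and that of all genes 50.8%. Lists of equal length bring the share over all genes near 50% by construction, so the values to compare are those of the forkhead and of all genes at that length. FoxO was then at 72.7% (49.8 to 89.3, from 16 FM-specific and 6 KO-specific regions). The mesenchyme, kidney and gonad genes were at 70.6% (44.0 to 89.7, from 12 and 5). The other role groups lay from 33.3% to 50%, and the interval of every role group included 50.8%. By gene, more FM-specific than KO-specific regions were found at 30 of the 33 genes (90.9%), against 76.6% of genes with any specific region. The number of regions per gene bears on such a majority, and its part was not tested. Its median was 14 for the forkhead genes and 7 for all genes with any region. Foxj2 was the 1 gene with more KO-specific regions (3 against 2; 15.5% of all genes with any specific region had more), and Foxr1 and Foxs1 had 1 of each. No KO-specific region was assigned to 8 of the 33 genes, and to 4816 of the 16035 genes with any specific region. Among the 8 were Foxe1, Foxe3, Foxj1, Foxj3, Foxm1, Foxn4 and Foxp2.

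Regions were concentrated at a few genes. Foxn3 held 193 of the 832 (23.2%), followed by Foxp1 with 90, Foxo3 with 50, Foxk1 with 44, Foxp4 with 41 and Foxo1 with 38. These 6 genes held 456 regions (54.8%). Foxn3, a checkpoint suppressor expressed in many tissues, also held 39 of the 111 KO-specific regions (35.1%). Without it the FM-specific share of the other 32 genes was 80.6% (76.3 to 84.5), an interval that did not include the 73.7% of all genes. That background still held chromosome 12, where Foxn3 lies and the FM-specific share over all genes was 65.7%. Without chromosomes 12, 15 and 18 the forkhead share was 80.4% (75.9 to 84.3), an interval that included the 76.1% of all genes. At the other extreme Foxp2 held 2 regions and Foxe3 and Foxm1 3 each. The genes whose regions were most often specific to one list, among those with at least 5 regions, were Foxi2 (78.6% of 14 regions), Foxq1 (71.4% of 7), Foxp1 (71.1% of 90), Foxn2 (68.0% of 25), Foxn1 (64.3% of 14) and Foxd2 (64.0% of 25).

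**Figure D2:**
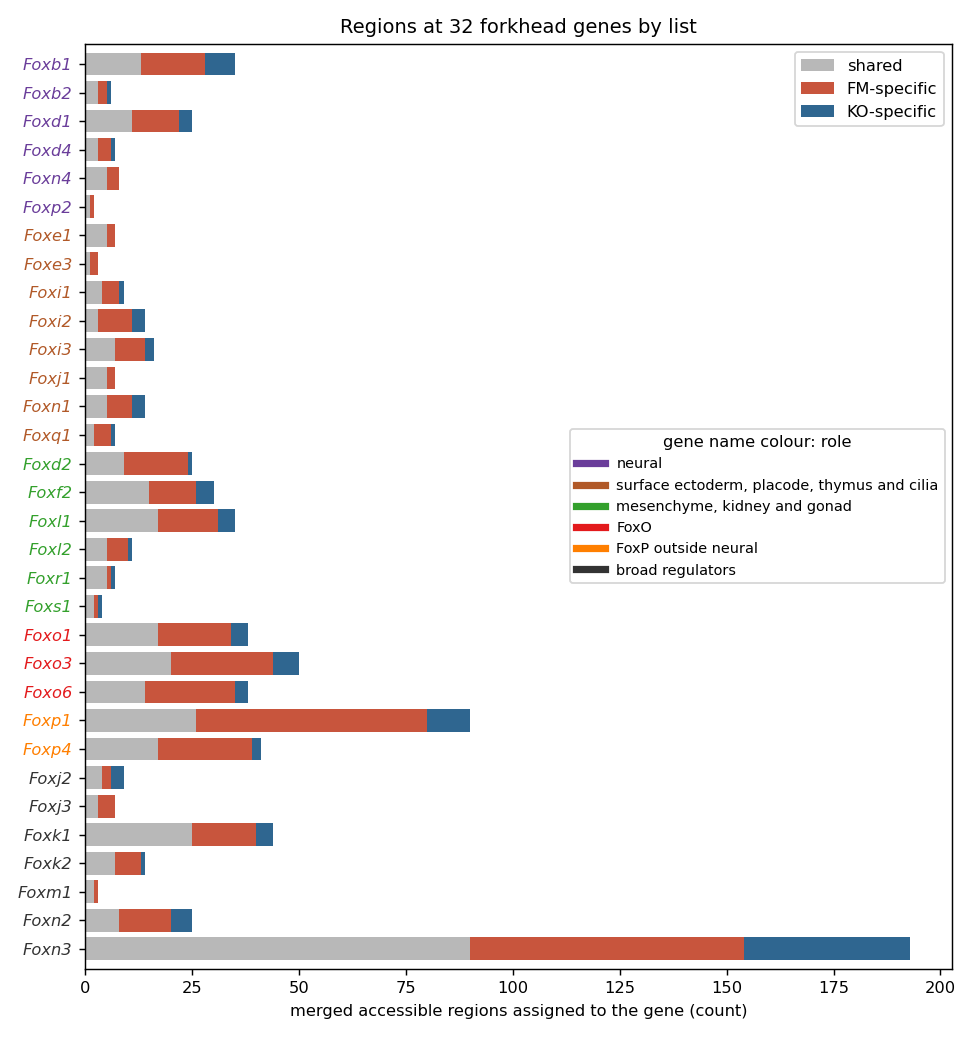
Number of merged accessible regions assigned to each of 32 forkhead genes (x axis, count), split into shared, FM-specific and KO-specific regions, with gene names coloured by role. Foxn3 stands apart with 193 regions, of which 39 are KO-specific, and Foxp2 has 2.

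As a set, the forkhead genes sat in wider neighbourhoods than all genes, and their density of regions varied widely. Their median number of regions was 14 per gene, against 7 for all genes with any region, and the median territory, the gene with the surrounding span in which a summit would be assigned to it, was 107 kb against 43.6 kb. Per 100 kb of territory the 33 genes together held 17.2 regions, or 14.8 without Foxn3, against 12.8 for all genes. By gene the median was 23.2 per 100 kb (quartiles 13.0 and 29.5), against 17.6 (4.65 and 28.7), so the ranges overlapped. Their peaks lay more often away from the gene body. Peaks outside the gene and more than 1 kb from its ends made up 53.5% of forkhead peaks in FM and 50.3% in KO, against 34.2% and 35.1% of all peaks, and those more than 20 kb away made up 33.2% and 31.5%, against 15.5% and 15.4%. The median flank assigned to a gene, both sides together, was 86.5 kb, against 17.8 kb for all genes. It moves with these shares, and its part in them was not tested. Regions wider than 2 kb numbered 12 (1.44%, against 0.630% of all regions). The widest was the 2841 bp region over the lower-coordinate end of Foxo1 (chr3:52267604-52270444), followed by a region of 2772 bp at Foxo3.

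Forkhead peaks had about the same typical strength as all peaks and fewer very strong ones. The median fold was 1.96 in FM and 1.98 in KO, beside 1.96 and 2.01 for all peaks of each list. A fold of at least 5 was reached by none of the FM peaks and 8 of the KO peaks (1.65%), beside 1.81% and 4.81% of all peaks. The 12 FM and 21 KO peaks with a −log10 q of at least 50 were all shared, as were 99.8% (FM) and 99.6% (KO) of all such peaks. Of the 265 FM peaks with a −log10 q from 2 to 5, 31.3% were shared (29.4% of all FM peaks of that strength), and of the 252 from 5 to 10, 50.8% (48.0%). Of the 164 KO peaks from 2 to 5, 68.9% were shared (61.1% of all KO peaks of that strength), and of the 141 from 5 to 10, 68.8% (71.9%). Between these bins the shared part of forkhead peaks differed in FM and was nearly equal in KO, where that of all peaks did differ. No interval was computed for these shares, and the difference from all peaks was not tested. From 10 to 20 it was 78.6% of 126 forkhead peaks in FM (79.4% of all) and 91.25% of 80 in KO (84.1%).

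A peak within 1 kb of either gene end was present at all 33 genes in FM (74.2% of all genes) and at 32 of 33 in KO (71.2% of all genes), with Foxn1 the exception. The strongest such peak had a median fold of 3.08 in FM and 3.50 in KO, below the medians of all genes with one, 3.51 and 4.28. No forkhead gene reached a gene-end fold of 5 in the FM list, which allows a share of up to 9.09%, and 15.4% of all genes did. In the KO list 5 of 33 did (15.2%, against 27.3% of all genes). These were Foxk2 (5.89), Foxn2 (5.46), Foxj3 (5.37), Foxi3 (5.31) and Foxn3 (5.22). Foxk2 and Foxn3 are widely expressed genes, and Foxi3 was the 1 gene of the 5 with a restricted, ectodermal role. The KO value was the higher at 20 of the 32 genes with both (62.5%), as it was at 76.0% of all genes with both. The strongest peak was taken in each list on its own. The values of a gene can therefore come from different places, as they did at Foxb2, Foxo6, Foxq1 and Foxr1.

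**Figure D3:**
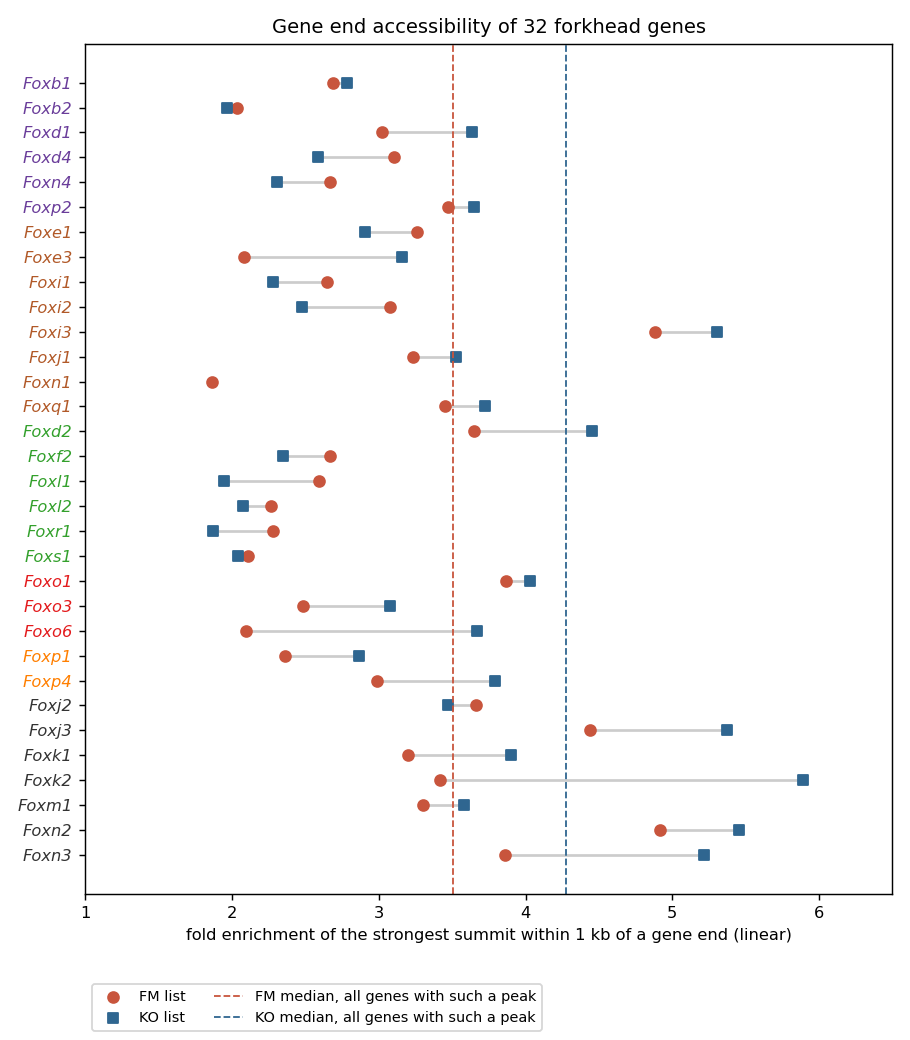
Linear fold enrichment of the strongest peak with its summit within 1 kb of either gene end, for 32 forkhead genes in FM (circles) and KO (squares), with dashed lines at the median of all genes with such a peak (3.51 in FM, 4.28 in KO). The FM values lie below 5, and Foxk2, Foxn2, Foxj3, Foxi3 and Foxn3 exceed 5 in KO.

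The neural genes held 91 regions, 39 shared, 40 FM-specific and 12 KO-specific, and their FM-specific share was 76.9% (63.2 to 87.5), beside 76.9% for all genes of the same chromosomes. With 50000 peaks from each list it was 33.3% (4 FM-specific and 8 KO-specific regions), beside 50.8% for all genes. Foxb1, a factor of the hypothalamus and midbrain, held 35 of them, 13 shared, 15 FM-specific and 7 KO-specific. Its strongest peak was not at the gene but 86.8 kb to the lower-coordinate side, at chr9:69670531-69671123 in the KO list, with a fold of 5.12 and −log10 q of 93.4. The FM peak at the same place (chr9:69670552-69671123) had a fold of 4.25 and −log10 q of 45.8. Beside it lay a KO-specific peak, chr9:69670065-69670316, of fold 2.34, and another KO-specific peak of fold 2.73 and −log10 q of 18.9 lay on the opposite side of the gene at chr9:69767485-69767804. At the gene end itself Foxb1 had folds of 2.69 (FM) and 2.78 (KO), so its distal site was the stronger in both lists.

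Foxd1, a factor of the forebrain and of kidney stroma, held 25 regions (11 shared, 11 FM-specific, 3 KO-specific) with gene-end folds of 3.02 (FM) and 3.63 (KO). Foxd4, which acts in the early neural plate, held 7 and had folds of 3.11 and 2.58, and Foxb2 held 6 and had folds of 2.04 and 1.97. Foxn4, needed for retinal and spinal interneurons, held 8, with no KO-specific region, and had folds of 2.67 and 2.31. Foxp2, which is linked to speech and vocal learning, held 2 regions and had folds of 3.47 and 3.65. The gene-end folds of the neural genes had medians of 3.02 and 2.78.

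The genes of surface ectoderm, placode, thymus and cilia held 77 regions, 32 shared, 35 FM-specific and 10 KO-specific, a share of 77.8% (62.9 to 88.8) beside 78.3% on their chromosomes, and 50% with 50000 peaks from each list. Foxi3, whose promoter window is printed above, held 16 regions, 7 shared, 7 FM-specific and 2 KO-specific. Foxi2 held 14, of which 8 were FM-specific and 3 KO-specific. Its gene-end peak had folds of 3.08 (FM) and 2.48 (KO), and its strongest FM-specific peak, chr7:135394493-135394784, lay 15.7 kb away with a fold of 2.74 and −log10 q of 12.8. Foxi1, a factor of the inner ear and of acid-secreting cells, held 9 and had gene-end folds of 2.64 and 2.28.

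Foxj1, the switch for motile cilia, held 7 regions, 5 shared and 2 FM-specific, with gene-end folds of 3.23 (FM) and 3.52 (KO). Foxe1, needed for thyroid development, also held 5 shared and 2 FM-specific regions, and had folds of 3.26 and 2.90. Foxe3, a lens factor, lies next to Foxd2 and held 3 regions. Its gene body was covered by 1 FM peak of fold 2.08 (chr4:114924919-114926474, −log10 q of 6.89) and by 2 KO peaks of folds 3.16 and 2.67. Foxq1, which acts in hair, held 7 regions and had folds of 3.45 and 3.72. Foxn1 held 14 regions, 5 shared, 6 FM-specific and 3 KO-specific, and 1 of the 6 was the weak gene-end peak over its promoter window.

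The genes of mesenchyme, kidney and gonad held 112 regions, 53 shared, 47 FM-specific and 12 KO-specific, a share of 79.7% (67.2 to 89.0) beside 76.0% on their chromosomes. Their gene-end folds had the lowest medians of the 6 role groups, 2.44 in FM and 2.06 in KO. Foxd2, which acts in kidney and other mesenchyme, was the exception, with folds of 3.65 (FM) and 4.45 (KO) and 25 regions of which 15 were FM-specific and 1 KO-specific. Its peak also covers an end of the non-coding gene Foxd2os and cannot be assigned to either gene alone. Foxl1, of the gut mesenchyme, held 35 regions and had folds of 2.59 and 1.95, and Foxf2, of gut and palate mesenchyme, held 30 and had folds of 2.67 and 2.34. Foxl2, the ovarian factor, held 11 and had folds of 2.27 and 2.07, and 2 of its FM-specific peaks passed a −log10 q of 10. Foxs1, expressed in pericytes, held 4 with folds of 2.11 and 2.04, and Foxr1 held 7 with folds of 2.28 and 1.87. The KO value was the higher at 1 of these 6 genes, Foxd2 (16.7%, against 76.0% of all genes with both). The values of Foxr1 came from opposite ends of the gene, and folds of the lists share no scale, so no change is read from this count.

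The FoxO genes, effectors of insulin and Akt signalling, held 126 regions, 51 shared, 62 FM-specific and 13 KO-specific, a share of 82.7% (72.2 to 90.4) beside 75.6% on their chromosomes. Foxo3 held 50 (20 shared, 24 FM-specific, 6 KO-specific), Foxo1 38 (17, 17 and 4) and Foxo6 38 (14, 21 and 3). Foxo1 had gene-end folds of 3.86 (FM) and 4.03 (KO) within the widest region of the family. Foxo3 had gene-end folds of 2.49 and 3.07, and a stronger peak about 1 kb further out, at chr10:42277512-42278665, of fold 3.51 in FM and at chr10:42277492-42278567, of fold 4.58 and −log10 q of 172, in KO.

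Foxo6, a FoxO gene expressed mainly in brain, showed 2 distinct patterns. At its higher-coordinate end a peak had a fold of 2.04 in FM (chr4:120287076-120288316, 209 fragments over 101.9) and 3.67 in KO (chr4:120287128-120288326, 322 over 87.1). Its strongest FM gene-end value, 2.09, came from the opposite end, where KO had 2.53. A few kilobases beyond the higher-coordinate end lies the non-coding gene Foxo6os (chr4:120291133-120303893), in which the FM list had 3 peaks and the KO list none. The strongest of them, chr4:120291168-120291412, had its summit 159 bp inside the lower-coordinate end of Foxo6os, with a fold of 2.17 and −log10 q of 16.5. Foxo6 had 4 FM-specific peaks with a −log10 q of at least 10, the joint highest number with Foxp4.

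The FoxP genes outside the neural group were Foxp1, which acts in lymphocytes, heart and neurons, and Foxp4, which acts in lung and gut. They held 131 regions, 43 shared, 76 FM-specific and 12 KO-specific, a share of 86.4% (77.4 to 92.8) beside 77.9% on their chromosomes. Foxp1 held 26 shared, 54 FM-specific and 10 KO-specific regions, and Foxp4 17, 22 and 2. Foxp4 had gene-end folds of 2.99 (FM) and 3.79 (KO). Foxp1 had gene-end folds of 2.36 and 2.87, below those at its last start printed above, which lies within the gene. With 50000 peaks from each list the share of these FoxP genes was 50%, from 10 regions of each kind.

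The broadly acting regulators held 295 regions, 139 shared, 104 FM-specific and 52 KO-specific, a share of 66.7% (58.7 to 74.0) beside 69.0% on their chromosomes. With 50000 peaks from each list it was 40% (22 FM-specific and 33 KO-specific regions). They had the highest median gene-end folds of the groups, 3.67 in FM and 5.22 in KO. Foxk1 and Foxk2, which repress autophagy genes and promote glycolysis, held 44 and 14 regions. Foxk2 had gene-end folds of 3.42 in FM (202 fragments over a background of 58.4) and 5.89 in KO (332 over 55.5), with nearly equal backgrounds. Foxk1 had gene-end folds of 3.20 (FM) and 3.90 (KO), and its highest fold, which was also the highest of the family, lay 34.1 kb away at chr5:142367108-142368034 in KO. That peak had a fold of 5.92, a −log10 q of 196 and 476 fragments over 79.6, and the FM peak there (chr5:142367122-142368076) had a fold of 4.06, a −log10 q of 76.5 and 273 fragments.

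Foxn2, a widely expressed gene, held 25 regions and the highest FM fold of the family, 4.91, at chr17:88440223-88441870 (262 fragments over 52.5, −log10 q of 90.6), where KO had 5.46 (chr17:88440205-88442125). Foxj3 held 7 regions, none KO-specific, and had folds of 4.44 (FM, chr4:119538766-119540484) and 5.37 (KO). Foxm1, which drives genes of the G2 to M transition, held 3 regions, with highest folds of 2.25 (FM) and 2.19 (KO). Its gene-end folds of 3.30 and 3.58 came from peaks outside these 3 regions, with summits nearer another gene. Foxj2 held 9 regions and had folds of 3.67 and 3.47. Foxn3 had folds of 3.86 and 5.22 at its higher-coordinate end (chr12:99563318-99564014 and chr12:99563333-99564018). Inside the gene it had a further strong site, chr12:99329010-99330306 in FM, of fold 4.34 and −log10 q of 103, and the overlapping KO peak (chr12:99329044-99330255) had a fold of 5.16 and 618 fragments. The highest pileup of the family was also in Foxn3, 751 fragments over a background of 167.5 in KO (chr12:99391938-99393979), and that background was the highest at any of the forkhead peaks.

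The 3 longest forkhead genes differed widely in how their bodies were covered. Foxn3, of 374 kb, had 115 FM and 95 KO peaks with their summit inside, against medians of 15 and 10 among the 195 genes of 300 to 400 kb. Of those genes, 2 had at least as many FM peaks and 1 at least as many KO peaks, Foxn3 included in each count. Chromosome 12, which carries Foxn3, had a median of 16 regions per gene with any region, against 7 over all chromosomes. The part of the chromosome in the coverage of Foxn3 was not tested. Foxp1, of 597 kb, had 64 FM and 30 KO peaks inside, and among the 98 genes of 500 to 700 kb, 19.4% had at least as many FM peaks and 21.4% at least as many KO peaks, Foxp1 included. Foxp2, of 541 kb, had no FM summit inside and 1 KO summit, that of a peak covering its lower-coordinate end (chr6:14899972-14901906). An FM peak covered the same end (chr6:14900452-14901940) with its summit 0.418 kb outside the gene, so the lists differ there in summit placement and not in whether the end was covered. The other 2 FM peaks of Foxp2 lay further outside that end. At most Foxp2's number of FM peaks was found in 4 of the 98 genes (4.08%), and at most its number of KO peaks in 17 (17.3%), Foxp2 included in each count, where the medians were 12 and 7. Foxp2 and Foxp1 lie on the same chromosome, where the FM-specific share of all genes was 80.8%. That of Foxp1 was 84.4% (73.1 to 92.2). That of Foxn3 was 62.1% (52.0 to 71.5), beside 65.7% for all genes of chromosome 12. With 50000 peaks from each list the share over all genes was 50.8%. Foxp1 was then at 44.4% (13.7 to 78.8, from 4 FM-specific and 5 KO-specific regions). Foxn3 was at 27.8% (14.2 to 45.2, from 10 and 26), and no share of its chromosome was computed at that length.

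**Figure D4:**
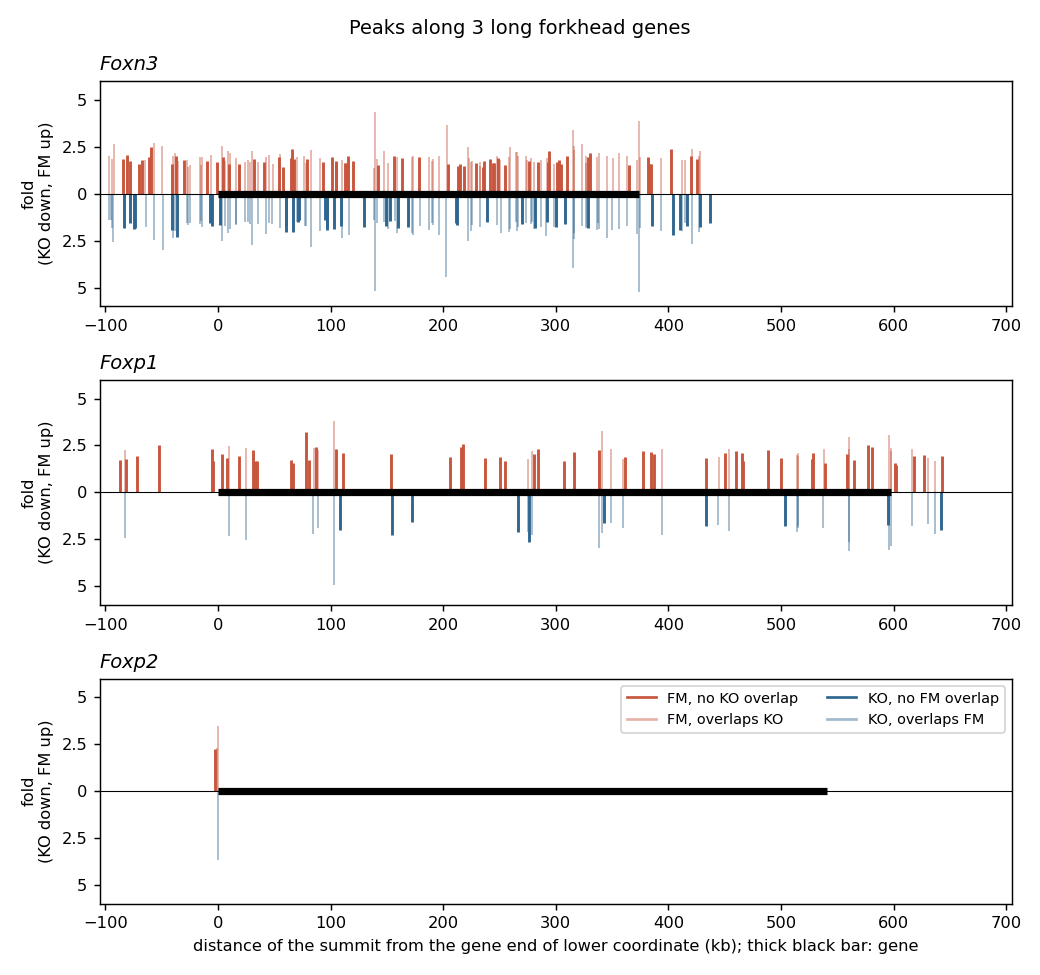
Peaks along Foxn3, Foxp1 and Foxp2, with the distance of each summit from the gene end of lower coordinate on the x axis (kb), fold enrichment on the y axis (FM upward, KO downward), dark lines for peaks without overlap in the other list and a black bar for the gene. Foxn3 is covered along its length with 115 FM and 95 KO peaks inside, and Foxp2 has peaks at its lower-coordinate end alone.

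Peaks of high significance that had no counterpart in the other list were few. In FM, 28 of the 183 forkhead peaks with a −log10 q of at least 10 had none (15.3%), against 12.4% of all FM peaks of that strength. In KO, 8 of 151 had none (5.30%, against 8.81%). The FM peaks fell at 16 genes, with 4 each at Foxo6 and Foxp4, 3 each at Foxp1 and Foxn3, 2 each at Foxd1 and Foxl2, and 1 each at 10 others. The KO peaks fell at Foxn3 (3), Foxb1 (2), Foxd1, Foxk1 and Foxp1.

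The strongest of the FM-specific peaks lay inside Foxp1 (chr6:99003152-99003754), with a fold of 3.24, a −log10 q of 20.2 and 96 fragments over 28.9. The next lay inside Foxp4 (chr17:47914906-47915282), with a fold of 2.78 and a −log10 q of 19.3. Foxo6 had the following pair, the one in Foxo6os described above and one at chr4:120326060-120326616 of fold 2.81 and −log10 q of 16.3. The fifth lay 85.3 kb from Foxk1 (chr5:142315975-142316404), with a fold of 2.65 and a −log10 q of 16.2. Both of the leading FM-specific peaks were thus intragenic sites of FoxP genes.

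Among KO-specific peaks the strongest lay 36.2 kb from Foxn3 (chr12:99153766-99154031), with a fold of 2.33 and a −log10 q of 20.0. The peak near Foxb1 at chr9:69767485-69767804 followed. The third lay at Foxk1 (chr5:142457413-142457803), with a fold of 2.05 and a −log10 q of 15.8. The other Foxb1 peak came next, with a −log10 q of 13.9, and then one inside Foxp1 (chr6:99201227-99201582), with a fold of 2.62 and a −log10 q of 12.02. Foxp1, Foxk1, Foxn3 and Foxd1 therefore held strong specific peaks of both lists.

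The 8 forkhead genes of endoderm, mesoderm and gastrulation that the rule left out held 106 regions, 49 shared, 50 FM-specific and 7 KO-specific, a share of 87.7% (76.3 to 94.9). Their interval overlapped that of the 33 genes (72.6 to 80.4), and the difference was not tested. Genes that work with the forkhead factors were counted in the same way. The FoxO signalling list, 15 genes long, had 113 regions of the FM-specific and 35 of the KO-specific kind, a share of 76.4% (68.7 to 82.9). The list of 10 mitotic targets of Foxm1 had 33 and 23, a share of 58.9% (44.98 to 71.9), and 9 motile cilia genes downstream of Foxj1 had 99 and 36, 73.3%. The 6 partners of the FoxP factors had 33 and 12, 73.3%. The share over all genes was 73.7%, which lay outside the interval of the mitotic list and inside those of the other 3. These intervals treat regions as independent, which regions of one gene are not.

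**Figure D5:**
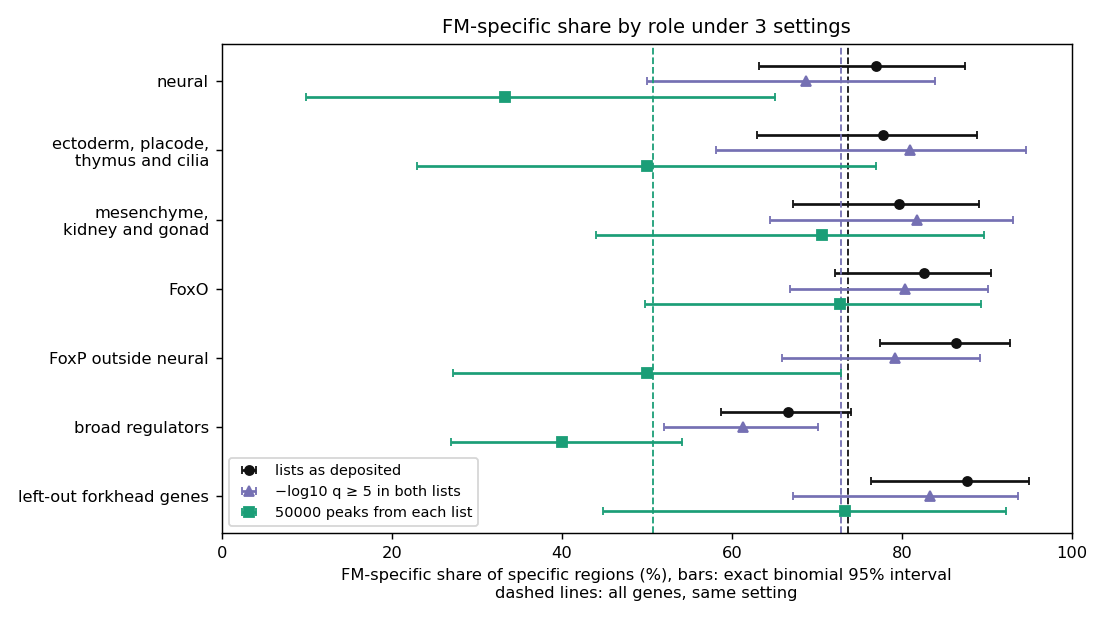
FM-specific share of list-specific regions (x axis, percent) for the 6 role groups and the 8 forkhead genes left out, with the lists as deposited (circles), with peaks of −log10 q of at least 5 (triangles) and with 50000 peaks from each list (squares); bars are exact binomial 95% intervals and dashed lines the share over all genes. At equal list length the share over all genes falls to 50.8%, with FoxO at 72.7%, mesenchyme, kidney and gonad at 70.6% and the neural genes at 33.3%. The interval of every role group at that length includes 50.8%.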

How the data were processed

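ATAC-seq of 3 Mixl1 knockout and 3 Mixl1-induced libraries was deposited as 2 narrowPeak lists, 1 per group. Per the submitters' processing notes, bcl2fastq, Bowtie2, SAMtools, MACS2 and mm10 were used; versions and settings are not stated there. In the deposited lists the authors give each summit a fold enrichment (a ratio of pileup to local background), a −log10 p and −log10 q value and a display score, which was not used. The lowest −log10 q was 1.30 in each list, a q of 0.05. Whether replicates were pooled before peak calling is not stated.

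From these, rows of one peak (279817 in FM, 191107 in KO) were reduced to the one with the smallest p. Peaks of both lists were merged into regions, called shared where they overlapped by at least 1 bp. Each peak went to the nearest autosomal protein-coding RefSeq gene (GRCm38.p6) within 100 kb of its summit, ties counting for each gene. The pileup was recovered from fold and p within 0.02 of a whole number. Shares carry exact binomial (Clopper-Pearson) 95% intervals; with 1 list per group nothing was tested between groups. A limit on a count of 0 is 3 counts of the total. Counting was tested on simulated data. Python 3.11.15, pandas 2.3.3 and scipy 1.17.1 were used.

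The forkhead genes, role groups and gene lists were chosen with earlier results of these data known. One of the 33 genes is counted in the totals and otherwise not reported here, nor is 1 of the gene lists. Full values were given for genes with a gene-end fold of at least 5, the 6 genes with most regions, the 6 most list-specific genes among those with at least 5 regions, the 5 peaks of highest fold per list and the 5 most significant specific peaks per list. Alternatives covered the q threshold, list length, overlap, distance, summits, chromosomes and single genes left out.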

Additional observations from a re-analysis of the deposited data

How the results depend on the processing

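Of 50 alternative values, 28 stayed close to the reported one and 22 moved, 16 of them downward. The forkhead FM-specific share was 71.8% for peaks with a −log10 q of 5 or more (all genes 72.8%), 60.9% for 10 or more (64.1%), 50.7% with the 50000 peaks of lowest p from each list (50.8%), 80.4% without chromosomes 12, 15 and 18 (76.1%) and 80.6% leaving out Foxn3. A stricter overlap, distances of 10 and 20 kb, distance from the region edge, single summits, and leaving out Foxp1 or Foxo3 gave 75.2% to 77.5%. At that equal length of 50000 it was 50% for the FoxP genes, 40% for the broad regulators, 33.3% for the neural genes, 50% for the ectodermal genes, 43.8% for the 6 long genes together and, in an alternative chosen after seeing the data, 73.3% for the 8 forkhead genes left out. At a −log10 q of at least 20, 1 of 57 FM peaks was FM-specific (1.75%, against 0.968% of all FM peaks of that strength). At 5 it was 152 of 435 (34.9%, against 35.4%). KO-specific ones were 1 of 71 (1.41%, against 2.98%) and 52 of 292 (17.8%, against 18.2%). Those of at least 10 within 20 kb numbered 17 (FM) and 5 (KO), and no share over all peaks was computed for that distance. A stricter threshold and a shorter list leave fewer peaks by construction; otherwise the cause was not tested. In FM, gene-end peaks were at 26 of the 33 genes within 0.5 kb (65.1% of all genes) and at 33 within 2 kb (79.6%). At a −log10 q of at least 10 they were at 30 (62.5%). In KO the numbers were 27 (62.6%), 33 (77.0%) and 27 (60.9%). For Foxp2 no alternative share could be given, as no specific region was left. No paired analysis was possible because each group has 1 peak list, which carries no replicate numbers, and for the same reason no replicate could be left out. A peak missing from a list may lie just under its threshold, the depth per library is unknown, and values of the lists share no scale.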

Other observations

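The forkhead genes on the X chromosome lie outside the autosomal rule. Foxo4, a further FoxO gene, had 2 peaks in each list. Foxp3, the regulatory T cell factor, had 2 FM peaks and no KO peak, and Foxr2 had none in either list.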
